A study of Homo sapiens with 4 samples.

Results

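The 10 genes described here are the transcription factors that drive epithelial-mesenchymal transition (EMT) and the regulators that hold cells in an epithelial state. They were taken by name from a deposited table of 60544 genes: ZEB1, ZEB2, SNAI1, SNAI2 and TWIST1 on the mesenchymal side, and GRHL2, OVOL1, ESRP1, ESRP2 and ELF3 on the epithelial side. All 10 names were found once each, and 9 passed the low-count filter. OVOL1 did not and has counts only. PC3, an established human prostate cancer line, was grown in RPMI-1640 medium with fetal bovine serum in every library. The control group, labelled shNC, and the group labelled sh812 had 2 libraries each. The design text names METTL3 knockdown against control, and sh812 was read as the knockdown because it is the only other label. Every knockdown library carries that single hairpin label, so effects of METTL3 loss and of the hairpin itself cannot be told apart. The labels do not say whether replicates were separate cultures, so p-values measure only the spread between these libraries, which may be technical.

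EMT is the programme by which epithelial cells loosen their junctions and gain motility. The ZEB, SNAI and TWIST proteins carry it out, the first 2 families mainly by binding E-box sequences in epithelial genes and repressing them. GRHL2 activates epithelial genes and opposes ZEB1, OVOL proteins repress ZEB1 and other EMT factors, ESRP1 and ESRP2 are RNA-binding proteins that set epithelial exons, and ELF3 is an epithelial ETS factor. METTL3 is the enzyme that places N6-methyladenosine on messenger RNA. Transcripts of several EMT factors are known to carry that mark in cancer cells.

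The libraries held 31450648 to 37041330 counts. METTL3 had 1682 and 1379 counts in shNC and 269 and 313 in sh812. Its level fell by 81.3%, from 43.98 ± 0.523 to 8.20 ± 0.766 CPM (counts scaled by TMM-adjusted library total, mean ± SD, n = 2). A gene is called here when its Benjamini-Hochberg adjusted p in edgeR was below 0.05. That held for 10.8% of the 16802 tested, with 5.43% higher and 5.42% lower in sh812. Carcinoma keratins marked the cells: the 4 markers KRT8, KRT18, KRT19 and EPCAM summed to 805 and 910.0 CPM in shNC and to 942 and 999 CPM in sh812. KRT18 and EPCAM rose. KLK3, KLK2 and KRT14 had 0 counts in every library, and the summed CPM of 5 immune markers was at most 1.11 and that of 5 neuroendocrine markers at most 0.950.

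Of the 9 tested regulators, 3 were called, against 10.8% of all genes tested. SNAI2 fell, and ELF3 and ESRP2 rose. The other 6 did not pass, with fitted log2 fold changes from -0.41 for ZEB2 to 0.31 for ESRP1. On the mesenchymal side 1 of 5 was called, in the lower direction. None was called higher in edgeR, DESeq2 or limma-voom, and 1 had an unadjusted p under 0.05 in that direction in edgeR. On the epithelial side 2 of 4 tested were called higher and 0 lower, with 0 lower in DESeq2 and limma-voom and 0 at an unadjusted p under 0.05. The sh812 and shNC libraries did not overlap in 8 of the 9 tested regulators, an arrangement found in 53.6% of all genes tested. The median log2 fold change of the 9 was 0.26, beside -0.00563 for all genes tested. By side, the median was -0.13 for the 5 mesenchymal regulators and 0.31 for the 4 tested epithelial ones.

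**Figure D1:**
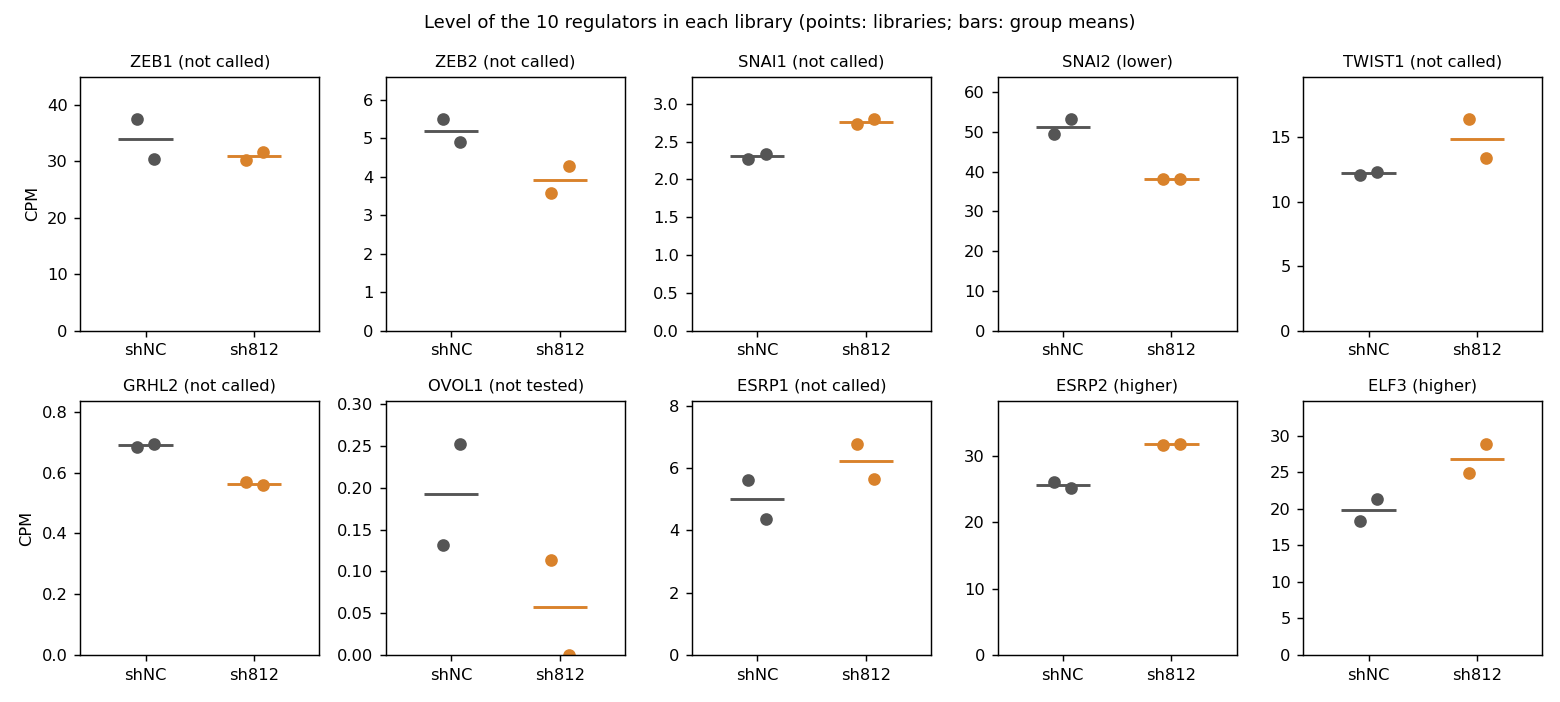
Level of each regulator in CPM (vertical axes, each from 0) in the 2 shNC (grey) and 2 sh812 (orange) libraries, with points for libraries and bars for group means. SNAI2 is lower in both sh812 libraries, ELF3 and ESRP2 are higher in both, and ZEB1 overlaps between the groups.

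SNAI2 (SLUG), an E-box repressor of the Snail family, is a minus-strand gene of chromosome 8 (48917604 to 48921740, GENCODE 29, GRCh38) and shares no exon with another annotated gene. Its level was 49.3 and 53.1 CPM in the shNC libraries and 38.1 and 38.2 CPM in the sh812 libraries. Both knockdown libraries were below both controls and almost equal to each other. The level fell by 25.5% (log2 fold change -0.42, SE 0.08, 95% interval -0.59 to -0.26, adjusted p = 0.00112 in edgeR over all genes tested). The call was lost when sh812 replicate 1 was left out, where the fitted value was still -0.42 and the adjusted p was 0.0524.

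SNAI1 (SNAIL), the other Snail factor among these regulators, is on chromosome 20 from 49982999 to 49988886. It had 86 and 74 counts in shNC and 96 and 100 in sh812. These are 2.27 and 2.34 CPM against 2.73 and 2.79 CPM, so the groups did not overlap and SNAI1 lay on the opposite side from SNAI2. Its log2 fold change of 0.26 (SE 0.26, 95% interval -0.27 to 0.79, adjusted p = 0.585 in edgeR) did not pass, and the interval covers both a fall and a rise. SNAI1 counts were 4.6% and 4.41% of SNAI2 counts in shNC and 7.18% and 7.32% in sh812, a ratio within each library that does not depend on scaling. The log2 of that ratio was 0.69 higher in sh812, with an exact permutation p of 0.333 (two-sided), which is the smallest that 2 libraries against 2 allow. It was 1 of 3 such ratios compared.

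ZEB1, the zinc-finger homeobox repressor of CDH1 and other epithelial genes, is on chromosome 10 from 31318495 to 31529814. It was measured at 37.4 and 30.4 CPM in shNC and at 30.3 and 31.7 CPM in sh812. The first control stood above the other 3 libraries, and the second lay between the knockdown libraries. The log2 fold change was -0.13 (SE 0.10, 95% interval -0.33 to 0.07, adjusted p = 0.44 in edgeR). The control library used decided the value. Without shNC replicate 1 it was 0.028 (adjusted p = 0.92), and without shNC replicate 2 it was -0.27 (adjusted p = 0.0375).

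ZEB2, its paralog, lies on chromosome 2 from 144364364 to 144524583. It was less abundant, at 5.48 and 4.90 CPM in shNC and 3.56 and 4.27 CPM in sh812. Both sh812 libraries were below both controls. The log2 fold change was -0.41 (SE 0.19, 95% interval -0.81 to -0.01), and its adjusted p of 0.191 in edgeR did not pass, with 0.131 to 0.654 over the alternatives. ZEB2 counts were 14.7% and 16.2% of ZEB1 counts in shNC and 11.8% and 13.5% in sh812, a log2 difference of -0.29 (exact permutation p = 0.333, two-sided). ZEB1 and ZEB2 have the longest coding transcripts of the 10 genes, 6267 and 9583 bases. Across 13477 genes, the change between groups had a Spearman correlation of -0.27 with exon length, and the difference between the shNC replicates, which shares the control libraries, had one of -0.26. With each library's length trend removed, the values were -0.06 for ZEB1 and -0.30 for ZEB2. ZEB1-AS1, the antisense gene that overlaps 366 bases of ZEB1 exons, had a log2 fold change of 0.04 (adjusted p = 0.943 in edgeR), and ZEB2-AS1 had 0 counts in every library.

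The E-box forms bound by ZEB and SNAI proteins, CACCTG and its reverse complement CAGGTG, were searched in the 250 bases before RefSeq gene starts (GRCh38.p14), where 3 of the 10 regulators have an entry. Of 35116 such windows, 17.5% held at least 1. ZEB1 had the motif in 2 of its 7 windows, ELF3 in its only window and ZEB2 in none. Of the 6 called epithelial targets described further on, 2 have an entry. CLDN7 had the motif in 1 of 2 windows and LSR in none. CDH1, EPCAM, MAL2 and PKP3 have no entry and were not searched. The ZEB1 window below ends at the base before the first listed start (chr10:31318167-31318416, plus strand), and the other lines are stretches of 30 bases around motifs of ELF3 (chr1:202010455-202010484, plus strand) and CLDN7 (chr17:7262479-7262508, minus strand). The windows of ELF3 and ZEB2, and the CLDN7 window with the motif, lie within UTR exons of GENCODE 29 over all 250 bases, so the ELF3 and CLDN7 stretches are inside the annotated gene, downstream of its outermost start. That CLDN7 window held 4 E-boxes in all, and another ZEB1 window, not printed, held 2. Capitals mark the E-boxes in the printed lines, which begin 57 bases before the start in ZEB1, 120 in ELF3 and 20 and 9 in CLDN7. They are shown because they lie in a regulator and in called genes, and a match of letters is a description, not a binding site.
ZEB1: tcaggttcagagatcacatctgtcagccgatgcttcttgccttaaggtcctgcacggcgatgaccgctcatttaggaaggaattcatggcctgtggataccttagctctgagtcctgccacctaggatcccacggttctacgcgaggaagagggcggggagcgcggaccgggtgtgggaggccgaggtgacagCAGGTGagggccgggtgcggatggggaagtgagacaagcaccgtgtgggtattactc
ELF3: gaatatgcaaatCACCTGgggccaggagcc
CLDN7: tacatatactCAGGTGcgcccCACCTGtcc

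TWIST1, a basic helix-loop-helix factor that pairs with E proteins, lies on chromosome 7 from 19020991 to 19117672. It had 12.1 and 12.3 CPM in shNC and 16.4 and 13.4 CPM in sh812. Both knockdown libraries were above the controls, replicate 1 by more. The log2 fold change of 0.29 (SE 0.13, 95% interval 0.03 to 0.55) did not pass (adjusted p = 0.154 in edgeR). Leaving out sh812 replicate 1 gave 0.14, and leaving out replicate 2 of that group gave 0.43.

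ELF3, on chromosome 1 from 202007945 to 202017188, moved most among the epithelial regulators tested. Its level was 18.3 and 21.4 CPM in shNC and 24.9 and 28.9 CPM in sh812. Each knockdown library exceeded both controls. The level was 35.5% higher, with log2 fold change 0.44 (SE 0.11, 95% interval 0.22 to 0.66, adjusted p = 0.0094 in edgeR). Without sh812 replicate 2 it was 0.33 and no longer passed (adjusted p = 0.25). ELF3 exons share 664 bases with ELF3-AS1 on the opposite strand and with AL691482.3, and whether strand was used in counting is not given in the sources used here, so their reads cannot be told apart.

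ESRP2 (chromosome 16, 68229111 to 68238102) had 26.1 and 25.2 CPM in shNC and 31.7 and 31.9 CPM in sh812. Replicates were close in each group and the groups stood apart. It rose by 23.9%, with log2 fold change 0.31 (SE 0.09, 95% interval 0.12 to 0.50, adjusted p = 0.0298 in edgeR). Of the called regulators it depended most on the settings. The adjusted p was 0.0707 with library size alone, 0.0686 with DESeq2, 0.241 without sh812 replicate 1 and 0.23 without sh812 replicate 2. ESRP2 shares 149 exonic bases with NFATC3 on the opposite strand.

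ESRP1 (chromosome 8, 94641074 to 94707466) had almost the same fitted change with a wider error. It was at 5.62 and 4.36 CPM in shNC and 6.78 and 5.64 CPM in sh812. The higher control was just below the lower knockdown library. Its log2 fold change was 0.31 (SE 0.18, 95% interval -0.07 to 0.69, adjusted p = 0.309 in edgeR). ESRP1 counts were 21.5% and 17.3% of ESRP2 counts in shNC and 21.4% and 17.7% in sh812, so the ratio of the splicing factors differed more between replicates than between groups (log2 difference 0.01, exact permutation p = 1, two-sided).

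GRHL2, a grainyhead factor that activates junction genes (chromosome 8, 101492432 to 101669726), was close to the limit of detection. It had 26 and 22 counts in shNC and 20 and 20 in sh812. These are 0.686 and 0.696 CPM against 0.57 and 0.559 CPM. With counts this low the log2 fold change of -0.29 had an interval from -1.40 to 0.82 (SE 0.54, adjusted p = 0.8 in edgeR), so a fall or a rise within that interval could not be told from no change at this depth.

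OVOL1, a zinc-finger repressor of ZEB1 (chromosome 11, 65787022 to 65797219), had 5 and 8 counts in shNC and 4 and 0 in sh812 and was not tested. The library with 0 counts allows up to 3 counts, or 0.0838 CPM. Fitted without the low-count filter, its 95% interval ran from -4.73 to 1.34 on the log2 scale (adjusted p = 0.729 in edgeR), so no direction can be read.

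**Figure D2:**
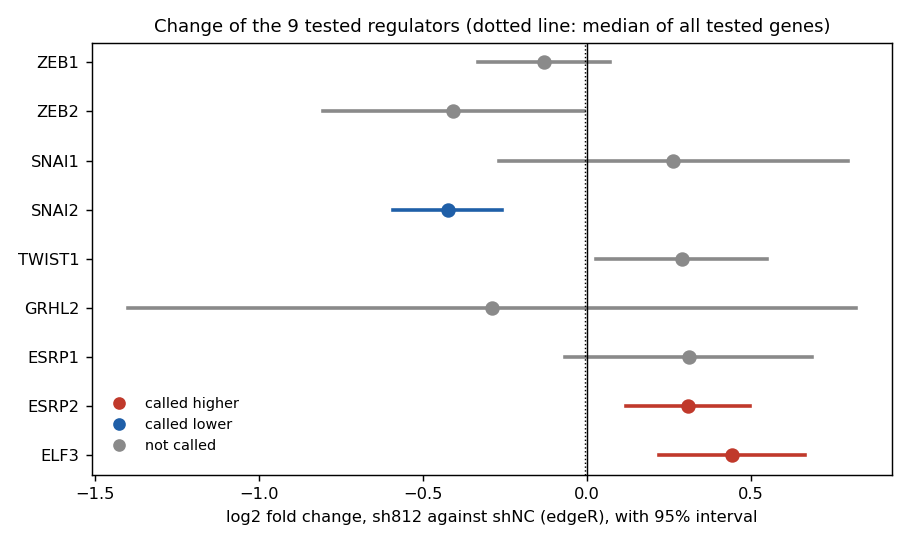
Log2 fold change of sh812 against shNC (horizontal axis) with 95% interval for the 9 tested regulators, red for called higher, blue for called lower and grey for not called. The interval of SNAI2 lies below 0 and those of ESRP2 and ELF3 above it, while that of GRHL2 spans -1.40 to 0.82.

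Levels were set side by side per kilobase of the longest annotated coding transcript, as CPM per kilobase (mean ± SD, n = 2). In shNC, SNAI2 was highest at 21.1 ± 1.11, followed by TWIST1 at 7.32 ± 0.0957, ESRP2 at 6.76 ± 0.174, ZEB1 at 5.41 ± 0.799 and ELF3 at 3.975 ± 0.44. SNAI1 at 1.37 ± 0.0304 and ESRP1 at 1.31 ± 0.233 overlapped between libraries, and ZEB2 at 0.542 ± 0.043, GRHL2 at 0.132 ± 0.00137 and OVOL1 at 0.0634 ± 0.0282 were lowest. The control cells therefore held transcripts of both sides, with SNAI2 on top and GRHL2 and OVOL1 near 0.

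In sh812, SNAI2 was still first at 15.7 ± 0.0324 CPM per kilobase. TWIST1 at 8.93 ± 1.27 and ESRP2 at 8.38 ± 0.0331 overlapped, and so did ELF3 at 5.39 ± 0.574 and ZEB1 at 4.94 ± 0.152. ELF3 and ZEB1 were thus apart in shNC, with ZEB1 higher, and no longer apart in sh812. The order of the means was the same with the length of all annotated exons in place of the coding transcript.

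**Figure D3:**
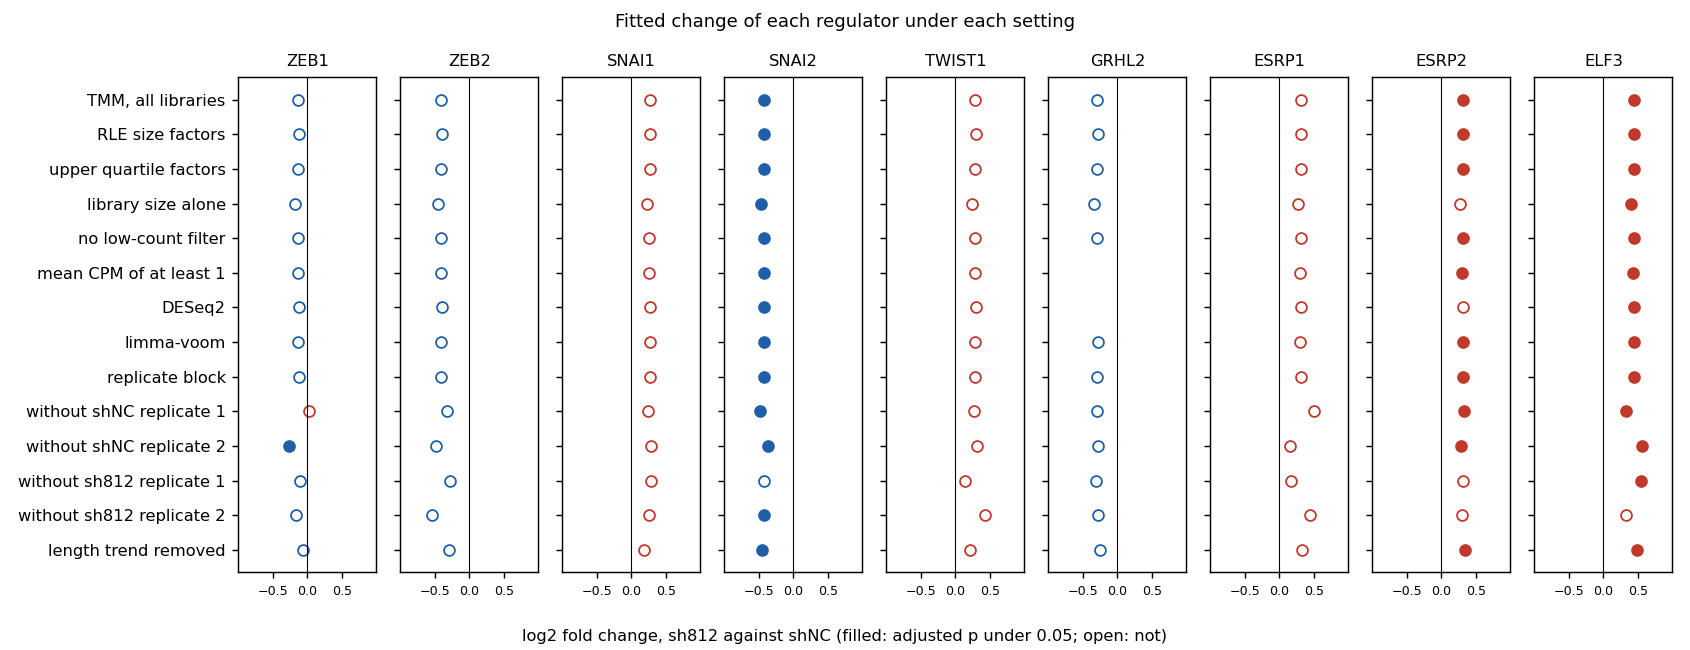
Fitted log2 fold change (horizontal axis) of each tested regulator under each setting (rows), filled where the adjusted p was under 0.05. SNAI2 and ELF3 are filled in 12 of their 13 alternatives and ESRP2 in 9 of 13, ZEB1 is filled only without shNC replicate 2, and GRHL2 has no value with DESeq2 or with a mean CPM of at least 1.

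Genes that these factors act on were examined next, from lists chosen with earlier results of these data known. The first list held 27 adhesion, polarity and surface genes known as repressed by ZEB and SNAI factors or activated by GRHL2 and its relatives. Of these, 26 were tested, 6 rose and 0 fell in edgeR, against 5.43% higher and 5.42% lower of all genes tested. At an unadjusted p under 0.05, 8 were higher and 1 was lower in edgeR. DESeq2 called 4 higher and 0 lower, limma-voom 6 and 0, and edgeR with library size alone 4 and 0. Without shNC replicate 1, however, 5 were called higher and 2 lower, the latter being SPINT1 (log2 fold change -0.21, adjusted p = 0.0177) and AP1M2 (-1.61, adjusted p = 0.0401), both picked out with their values known. Without sh812 replicate 1 or 2, 4 and 3 were called higher. The median log2 fold change was 0.10, beside -0.00563 for all genes. MAL2, an apical trafficking protein, rose from 436 ± 3.44 to 648 ± 21.8 CPM (SD, n = 2), or 0.57 on the log2 scale (SE 0.06, adjusted p = 1.66e-07 in edgeR). LSR, a component of tricellular junctions, rose from 47.6 and 50.3 to 68.4 and 69.5 CPM. EPCAM, an epithelial adhesion molecule, had 69.3 and 77.0 CPM in shNC and 98.5 and 101 CPM in sh812.

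CDH1 (E-cadherin), the best-known target of ZEB1 and the SNAI factors, was at 10.6 and 11.04 CPM in shNC and 14.4 and 17.7 CPM in sh812. Its log2 fold change was 0.57 (adjusted p = 0.00511 in edgeR), and 0.41 without sh812 replicate 2 (adjusted p = 0.202). The claudin CLDN7 rose from 5.62 ± 0.52 to 8.16 ± 0.71 CPM (SD, n = 2, adjusted p = 0.032 in edgeR) and the plakophilin PKP3 from 41.1 ± 0.596 to 49.0 ± 1.43 CPM (SD, n = 2, adjusted p = 0.0392 in edgeR). Each of these passed in 7 of 13 alternatives and in neither fit without 1 sh812 library, where CLDN7 had adjusted p of 0.335 and 0.116 and PKP3 of 0.221 and 0.329. MAL2, LSR and EPCAM passed in 13 of 13. The desmosome gene DSP and the claudins CLDN3 and CLDN4 did not pass, with log2 fold changes of 0.13, 0.15 and 0.14. AP1M2, an epithelial sorting adaptor, had 36 and 52 counts in shNC and 20 and 18 in sh812 and did not pass either (adjusted p = 0.0919 in edgeR).

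Of 20 mesenchymal adhesion, cytoskeleton and matrix genes, all tested, 7 fell and 1 rose, against 5.42% and 5.43% of all genes tested. The median log2 fold change of the list was -0.17. Without sh812 replicate 1 or 2, 4 and 5 were called lower and 0 higher. TGFBI and SPOCK1, secreted proteins of the matrix, fell to 25.6 ± 1.79 and 14.9 ± 0.562 CPM from 78.3 ± 5.12 and 37.2 ± 2.20 CPM (SD, n = 2). NT5E (CD73), fibronectin (FN1) and COL5A1 fell by 0.41, 0.32 and 0.64 on the log2 scale (edgeR adjusted p = 0.000367, 0.000687 and 0.00397). SPARC was also called lower. TGFBI and SPOCK1 passed in 13 of 13 alternatives. Without sh812 replicate 1, FN1 and NT5E did not pass (adjusted p = 0.156 and 0.0663), nor did COL5A1 without sh812 replicate 2 (adjusted p = 0.11). SPARC lost its call without either sh812 library (adjusted p = 0.315 and 0.121) and without shNC replicate 2 (-0.26, adjusted p = 0.233). CDH11, a mesenchymal cadherin, went the other way, from 386 ± 7.19 to 446 ± 11.99 CPM (SD, n = 2, adjusted p = 0.0168 in edgeR). CDH11 did not pass without sh812 replicate 1 or 2 (adjusted p = 0.354 and 0.179). The cadherin CDH2 and vimentin (VIM), the usual markers of EMT, did not pass in edgeR. Their log2 fold changes were 0.11 and -0.18 (edgeR adjusted p = 0.286 and 0.055). DESeq2 and limma-voom called VIM lower (adjusted p = 0.045 and 0.0366). They also called COL6A1 lower (adjusted p = 0.0305 and 0.0252), beside 0.0546 in edgeR. With library size alone or a mean CPM of at least 1, VIM, COL6A1 and ITGA5 were called lower. In this list DESeq2 called 8 genes lower and 1 higher, and limma-voom 9 and 1. Among markers of other cell types, the 6 fibroblast markers summed to 55.1 and 57.9 CPM in shNC and to 49.0 and 54.9 CPM in sh812. COL3A1 fell (log2 fold change -1.51) and COL1A2 rose (0.50), and the part of such markers in the mesenchymal changes was not tested. Of 4 endothelial markers, PECAM1 rose and KDR fell, while CDH5 and VWF had at most 6 counts in a library.

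**Figure D4:**
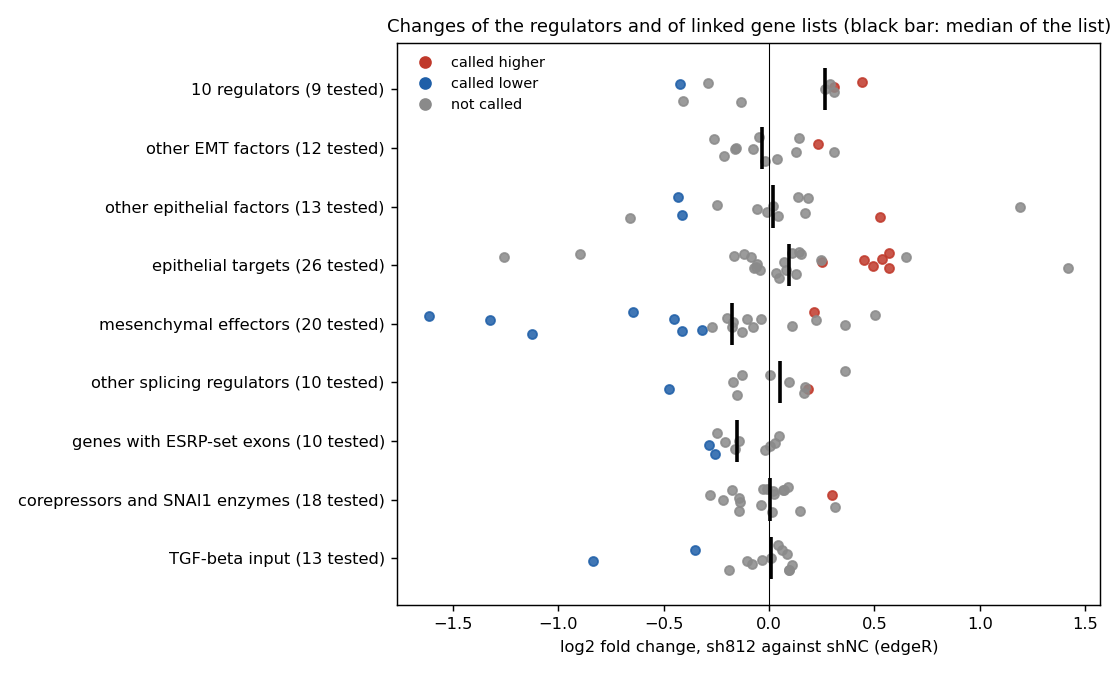
Log2 fold change (horizontal axis) of each tested gene, by list (rows), with red for called higher, blue for called lower, grey for not called and a black bar at the median of each list. The epithelial targets hold 6 red points and no blue ones, the mesenchymal effectors 7 blue and 1 red, and the lists of other transcription factors have medians near 0.

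Other transcription factors of the same programmes were examined in the same way. Of 15 other EMT factors and partners, 12 were tested and 1 was called (10.8% of all genes tested were). This was TCF3 (E2A), an E protein and partner of TWIST1, at 115 and 116 CPM in shNC and 134 and 137 CPM in sh812 (log2 fold change 0.23, adjusted p = 0.0149 in edgeR). Without sh812 replicate 1 or 2, TCF3 did not pass (adjusted p = 0.191 and 0.237). None was called lower by edgeR, DESeq2 or limma-voom, though 2 had an unadjusted p under 0.05, and TCF4 was called lower without shNC replicate 2 (-0.35, adjusted p = 0.038). TCF4 and TCF12, the other E proteins, had log2 fold changes of -0.26 and -0.16 and did not pass, and TWIST2 one of 0.31 (adjusted p = 0.534 in edgeR). The median of the 12 was -0.03. GSC had 0 counts in every library.

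Of 16 other epithelial factors, 13 were tested, 1 rose and 2 fell (10.8% of all genes tested were called). The median log2 fold change of the list was 0.02. TFAP2A rose from 24.7 and 21.0 to 35.5 and 30.5 CPM (log2 fold change 0.53, adjusted p = 0.00155 in edgeR). Its paralog TFAP2C fell from 40.4 and 39.6 to 29.5 and 29.7 CPM (-0.43, adjusted p = 0.00174 in edgeR). EHF, an ETS factor of the same subfamily as ELF3, fell from 26.3 and 24.0 to 19.2 and 18.7 CPM (-0.41, adjusted p = 0.0102 in edgeR), so these relatives were called in opposite directions. Leaving out sh812 replicate 1 ended all 3 calls (adjusted p = 0.126 for TFAP2A, 0.0655 for TFAP2C and 0.127 for EHF), and leaving out replicate 2 ended those of TFAP2C and EHF (adjusted p = 0.051 and 0.152). GRHL1, KLF4, KLF5 and FOXA1 did not pass, and ELF5 and OVOL3 had 3 counts or fewer in each library. OVOL2 had 10 and 14 counts in shNC and 17 and 40 in sh812, with an adjusted p of 0.228 in edgeR.

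Of 10 other splicing regulators, all tested, 1 rose and 1 fell (10.8% of all genes tested were called). QKI, an RNA-binding protein that promotes mesenchymal exons and circular RNAs, fell from 215 and 204 to 152 and 149 CPM. The difference, -0.47 on the log2 scale (SE 0.06, adjusted p = 9.19e-06 in edgeR), passed in 13 of 13 alternatives. HNRNPM, another promoter of mesenchymal exons, rose from 425 ± 7.09 to 484 ± 20.8 CPM (SD, n = 2, adjusted p = 0.0359 in edgeR), and did not pass with library size alone (adjusted p = 0.0875) or without sh812 replicate 1 or 2 (adjusted p = 0.506 and 0.196). RBFOX2 and MBNL1 had values of -0.15 and -0.13 and RBM47 0.36, and none of these passed. Without shNC replicate 2, 3 of the 10 were called higher and 3 lower, and without shNC replicate 1, 3 higher and 1 lower. The median of the 10 was 0.05.

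Of 11 genes with exons set by ESRP1 and ESRP2, 10 were tested and 2 were called (10.8% of all genes tested were). The gene totals of EXOC7 and ARHGEF11 fell, by 0.28 and 0.26 on the log2 scale (edgeR adjusted p = 0.00793 and 0.0285). None was called higher in edgeR, DESeq2 or limma-voom, and 0 were higher at an unadjusted p under 0.05. The median was -0.15. EXOC7 shares 2650 exonic bases with ZACN on the opposite strand. ARHGEF11 did not pass with the length trend removed (adjusted p = 0.0949), with DESeq2 (adjusted p = 0.06) or without shNC replicate 1 (-0.14, adjusted p = 0.248). Neither gene passed without sh812 replicate 1 or 2 (adjusted p = 0.0789 and 0.238 for EXOC7, 0.235 and 0.258 for ARHGEF11). Gene counts do not resolve exons, so isoforms of CD44 (-0.14) and CTNND1 (0.03) were not analysed here, and FGFR2 had at most 2 counts in a library.

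Of 18 corepressors and enzymes that act on SNAI1, 1 was called (10.8% of all genes tested were). KDM1A (LSD1), the demethylase that SNAI1 brings to epithelial promoters, rose from 222 ± 6.51 to 274 ± 0.717 CPM (SD, n = 2, adjusted p = 0.00143 in edgeR). None was called lower by edgeR, DESeq2 or limma-voom, with 2 at an unadjusted p under 0.05. In each of 3 alternatives 2 were called lower: EZH2 and LOXL2 with library size alone, FBXL14 and LOXL2 without shNC replicate 1, and FBXO11 and EZH2 without shNC replicate 2. KDM1A did not pass without sh812 replicate 1 or 2 (adjusted p = 0.0845 and 0.0825). The corepressors CTBP1 and CTBP2 had values of 0.02 and -0.14, and GSK3B and BTRC, which mark SNAI1 for destruction, of -0.04 and -0.03. The median of the 18 was 0.00316.

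Of 13 TGF-beta ligands, receptors and SMADs, all tested, 2 fell (5.42% of all genes tested did). These were the feedback inhibitors SKIL, from 80.3 and 73.1 to 59.6 and 60.6 CPM, and SMAD7, from 5.01 and 4.05 to 2.56 and 2.51 CPM (adjusted p = 0.00241 and 0.0156 in edgeR). None was called higher in edgeR, DESeq2 or limma-voom, and 0 were higher at an unadjusted p under 0.05. Without shNC replicate 2, TGFB1 was called higher (0.21, adjusted p = 0.0047). Neither inhibitor passed without sh812 replicate 1 or 2 (adjusted p = 0.0984 and 0.0643 for SKIL, 0.141 and 0.14 for SMAD7), and SMAD7 did not pass with DESeq2 or without shNC replicate 1 (adjusted p = 0.0831 and 0.107). TGFB1, TGFB2, TGFBR1, TGFBR2 and SMAD3 did not pass, with log2 fold changes from -0.19 for TGFB2 to 0.11 for TGFBR2. The median of the 13 was 0.01.

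The microRNAs of the miR-200 family and miR-205 silence ZEB1 and ZEB2 and are in turn repressed by them. Their 8 host and precursor genes gave almost no counts and were not tested. MIR200CHG, MIR200C, MIR141 and MIR205 had 0 counts in every library, and MIR205HG, the most counted, had 4 and 6 in shNC and 3 and 2 in sh812. Libraries of poly(A) RNA do not capture mature microRNAs, so their levels were not measured. The mature sequences (RefSeq, GRCh38.p14) are shown because these genes are the family's link to the ZEB factors, with the seed (bases 2 to 8) in capitals. miR-200b, miR-200c and miR-429 share 1 seed, miR-200a and miR-141 share another that differs from it at 1 base, and miR-205 has its own.
hsa-miR-200b-3p: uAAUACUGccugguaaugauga
hsa-miR-200c-3p: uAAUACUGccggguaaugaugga
hsa-miR-429: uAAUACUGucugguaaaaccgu
hsa-miR-200a-3p: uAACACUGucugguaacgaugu
hsa-miR-141-3p: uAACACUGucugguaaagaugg
hsa-miR-205-5p: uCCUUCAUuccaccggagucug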

How the data were processed

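Per the labels' protocols, poly(A) RNA was made into dUTP-marked libraries and read as 150-base pairs on a NovaSeq instrument. The authors deposited raw counts per gene. Per the submitters' processing notes, fastp, STAR 2.7.1a, featureCounts and DESeq2 were used with hg38. The annotation release and strand setting are not given in the sources used here. Of values from 1 to 20, 69.8% were even, so a count may be 1 end of a read pair.

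Counts were fitted with edgeR 4.0.16 in R 4.3.3 (filterByExpr, TMM, glmQLFit and glmQLFTest, all 4 libraries, no covariate), with Benjamini-Hochberg adjustment over 16802 genes and a threshold of 0.05. The SE was derived from the F statistic. CPM were computed from TMM-adjusted totals. Positions and lengths come from GENCODE 29, matched by Ensembl identifier. Alternatives used RLE, upper quartile or no scaling factors, other filters, DESeq2 1.42.0, limma-voom (limma 3.58.1), a replicate block, and each library left out. The length trend was removed with a lowess curve (span 0.3), an alternative chosen after seeing the data. The edgeR fit was tested on counts simulated with the spread fitted to these same libraries. That test takes the spread as given, so it cannot show whether the spread is technical. The replicate pairs differed by more than sampling noise (chi-square per gene 8.43 and 4.51). The members and lists were chosen with earlier results of these data known. The genes named are all members, METTL3, and the called genes of each list, with values for at most 6 per list by smallest p. List genes with 3 counts or fewer in every library are named in part, and some uncalled list genes are named as context after their values were seen. The results of some listed genes are not reported here.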

Additional observations from a re-analysis of the deposited data

How the results depend on the processing

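METTL3 kept its call in every alternative, with log2 fold changes from -2.52 to -2.33. The number of called regulators stayed at 2 or 3 with each other scaling, filter, tool, block and length setting, against 3. It ran from 1 to 4 when a library was left out, with 1 without either sh812 library. For all genes the count of calls, 1822, ran from 313 without sh812 replicate 1 and 424 without sh812 replicate 2 to 3326 without shNC replicate 2, and for the linked lists, 25 calls, from 9 to 36. These fits have fewer samples, and the lone library of a group is assumed to vary like the others. Library size alone gave 561 genes higher and 1328 lower, so 29.7% were higher against 50.1%, and 8 higher and 23 lower in the linked lists against 11 and 14. In 1 case a regulator reversed, ZEB1 without shNC replicate 1 (0.028), and without shNC replicate 2 its value of -0.27 passed. A prior count of 2 alters the fitted fold changes but does not enter the p-values, so it could not change a call. The replicate numbers are not said to mark a shared day, and libraries with equal numbers deviated from their group means with a correlation of 0.0448 across 13519 genes. With the replicate block, 2001 genes were called, and the same 3 regulators, SNAI2, ESRP2 and ELF3, passed. Depth limits GRHL2 and OVOL1, with at most 26 and 8 counts in a library.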
